A study of Mus musculus with 8 samples.

Results

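The oligoadenylate synthetase (Oas) family of the mouse was examined in primary microglial cultures through 8 of its genes, chosen by symbol: Oas1a, Oas1b, Oas1c, Oas1g, Oas2, Oas3, Oasl1 and Oasl2. All 8 were found in the deposited table, among 31406 genes in all. Cultures were prepared from the striatum of newborn wild-type C57/BL6 pups, kept for 15 days, and activated for 48 h with bacterial lipopolysaccharide (LPS) and interferon-γ (IFN-γ). All libraries analysed carried this activation and the adenosine A2A receptor antagonist SCH 58261, with 4 libraries receiving SCH 58261 alone (A2A antagonist group) and 4 receiving SCH 58261 with 200 nM 2-Cl-IB-MECA, an adenosine A3 receptor agonist (dual group). Additions of ligand were made at 24, 32 and 40 h of activation. Groups follow the sample titles, since the treatment field of the labels names 2-Cl-IB-MECA for the opposite 4 libraries. The column names of the deposited table name the receptors as the titles do, and the direction of every difference below rests on the titles. The methods name human IFN-γ, a cytokine whose action is known to be largely restricted by species, and neither cells without LPS and IFN-γ nor the vehicle control were analysed here, so the induction of the family by activation cannot be read. The methods give 4 pregnant animals for the study, but the sources used here do not say which litter each library came from, and p-values measure only the spread between these libraries.

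Oligoadenylate synthetases are sensors of double-stranded RNA in the cytosol. When bound to it they join ATP into short chains of adenosine linked 2′ to 5′ (2-5A), and 2-5A sets off the cutting of cellular and viral RNA. Their genes are textbook interferon-stimulated genes. Type I interferon drives them through transcription factors that bind the interferon-stimulated response element (ISRE), and in microglia they belong to the antiviral programme that LPS and interferons switch on.

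The 8 genes lie on chromosome 5 in 2 clusters. Coordinates are those of the deposited table, which are GRCm38. Oasl2 (114896936 to 114912234) and Oasl1 (114923240 to 114937915) lie side by side on the plus strand. The other 6 lie 5792417 bases further on, between the start of Oas2 at 120730333 and the end of Oas1a at 120907521, together with Oas1e, Oas1f and Oas1h. The annotation calls 7 of the 8 protein coding and Oas1b a polymorphic pseudogene, since its reading frame is broken in some mouse strains, C57BL/6 among them, and whole in others. Oas1c (minus strand, 120800194 to 120812514) and Oas1b (plus strand, 120812635 to 120824163) start back to back, with 120 bases between them.

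The sequences before these start sites are shown because Oas1a, Oas1g, Oas1b and Oas1c hold the same letters there. RefSeq promoters of GRCm38.p6, each of 250 bases before to 50 after the start, were at hand for 6 of the 8 genes (not for Oas1b and Oas2). They were searched on both strands for GAAANNGAAA, the core of the ISRE, which 3.44% of all 32851 promoters of that length held, and for TTCNNNGAA, the core of the gamma-activated site through which IFN-γ acts, which 8.30% held. In the sequences below, written 5′ to 3′ on the strand of the gene named first, capitals mark matches to GAAANNGAAA, of which the first 3 sequences hold an overlapping pair and Oas3 a single one.
Oas1a: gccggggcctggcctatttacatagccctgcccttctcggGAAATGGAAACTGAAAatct
Oas1g: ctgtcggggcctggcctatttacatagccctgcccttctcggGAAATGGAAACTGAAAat
Oas1b and Oas1c: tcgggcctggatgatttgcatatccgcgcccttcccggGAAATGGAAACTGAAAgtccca
Oas3: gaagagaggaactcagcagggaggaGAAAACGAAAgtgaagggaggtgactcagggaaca

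The stretch of Oas1a is chr5:120907526-120907585 (minus strand), that of Oas1g chr5:120887614-120887673 (minus strand), that of Oas1b and Oas1c chr5:120812575-120812634 (plus strand), and that of Oas3 chr5:120777700-120777759 (minus strand). The first 3 end at the base before a start site. For Oas1g and Oas1b that is the start in the table, and for Oas1a it is the RefSeq start, which lies 4 bases upstream of the one in the table. A run of 3 GAAA repeats (GAAANNGAAANNGAAA), present in 0.116% of all promoters, were spelled in these 3 stretches with the same 16 letters, GAAATGGAAACTGAAA. These 16 letters stood 20 to 5 bases before the start of Oas1a, 18 to 3 before that of Oas1g and 22 to 7 before that of Oas1b. From Oas1c they lay 114 to 99 bases before the start, on the opposite strand. They were found in 7 of the 32851 promoters, which belong to Oas1a, Oas1c, Oas1g, Apol9a and Apol9b. Aligned with each other, the stretches of Oas1a and Oas1g matched at 57 of 58 bases. Oas3 had a single match, 75 to 66 bases before its start, and TTCNNNGAA was matched in Oas1a alone, 98 to 90 bases before its start. The windows of Oasl1 and Oasl2 held neither set of letters.

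CPM are counts per 1000000 counts of the library, scaled with TMM factors, and levels of different genes are compared only after division by gene length in kilobases (RPKM). This length counts all annotated exonic bases, 6374 over 9 transcripts for Oasl2 and 1885 over 1 transcript for Oas1a. The order of levels holds for this length only. For Oas1a and Oas1g it also rests on how reads of their shared sequence were counted. Oasl2 had by far the highest level per length, 97.6 ± 6.50 RPKM (SD, n = 8 libraries of both groups), which was 48.9% of the sum over the 8 genes. Oas1a followed with 42.9 ± 3.32 RPKM. Next came 4 genes with close levels, namely Oasl1 with 13.5 ± 1.5, Oas2 with 13.4 ± 1.16, Oas1b with 12.7 ± 0.700 and Oas1g with 12.1 ± 1.12 RPKM. Oas3 had 4.96 ± 0.653 RPKM and Oas1c had 2.30 ± 0.0905 RPKM, so that Oasl2 stood 42.5-fold above Oas1c. Neighbours in this order did not overlap in any library, except among Oasl1, Oas2, Oas1b and Oas1g, whose ranges all overlapped with the next. Within that middle set the order was not the same in every library, with Oasl1 above Oas2 in 5 of 8 libraries and Oas1b above Oas1g in 7 of 8.

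**Figure D1:**
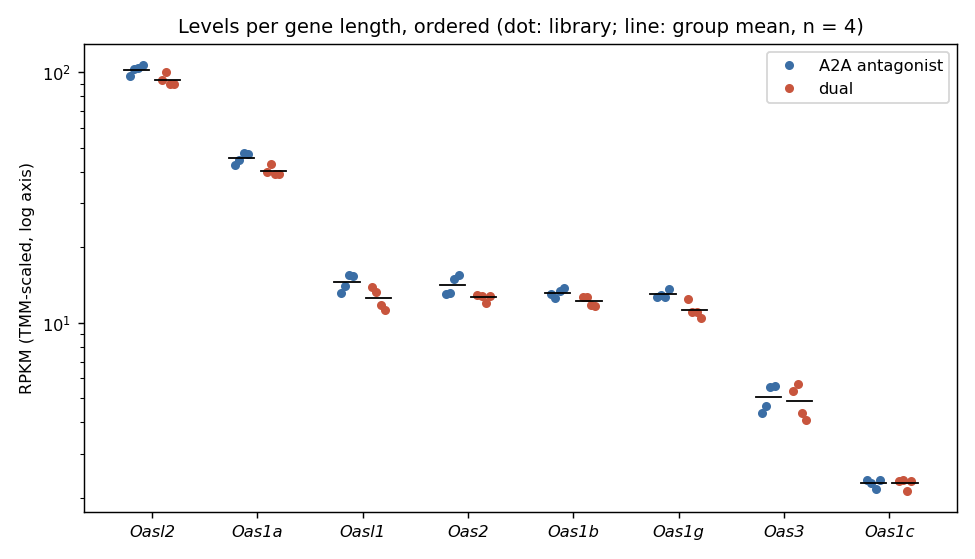
Level of each Oas gene per kilobase of gene length (RPKM, log axis) in each of the 8 libraries, with dots for libraries, lines for group means, blue for the A2A antagonist group and red for the dual group. Oasl2 and Oas1a lie above a middle set of 4 genes with overlapping ranges, and Oas3 and Oas1c lie below it, in both groups.

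The other Oas genes of the table were close to silent. Oas1d had 0 to 3 counts per library, Oas1e had 0 in 7 libraries and 3 in antagonist replicate 4, and Oas1f had 1 or 2 counts in each antagonist library and 0 in each dual library, all at or under the level of 3 counts that cannot be told from none. Oas1h had 20 to 50 counts per library, and its CPM of 1.53 in dual replicate 1 stood above the 0.436 to 0.814 of the other 7 libraries.

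The comparison of the groups asks whether the A3 receptor agonist moved the family beyond the A2A receptor antagonist. Fitted levels of all 8 genes were lower with both ligands, by 0.206% (Oas1c) to 13.7% (Oasl1), and a fitted level below that of the antagonist was seen in 48.5% of all 18756 genes tested. The median of the 8 log2 fold changes was -0.15, against 0.0038 over all genes tested. None of the 8 passed an adjusted p of 0.05 in edgeR's quasi-likelihood test, in which 0.16% of all genes tested were called lower and 0.208% in either direction. An unadjusted p under 0.05 was reached by 6 of the 8, all of them lower, against 6.81% of all genes tested in that direction and 12.8% in either. Among these 6, Oas1b lay at the limit with an unadjusted p of 0.0492 in edgeR. The count was 5 with a minimum count of 30, in DESeq2, and in 5 of the 8 fits with 1 library left out. The 8 genes were measured in the same libraries and are not independent, so these counts describe the family and carry no test of their own. All 8 passed the low-count filter in both groups, so none entered through the group where it was higher.

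Oas1a, an active synthetase, had 80.6, 84.0, 89.7 and 88.7 CPM in antagonist replicates 1 to 4 and 74.9, 80.6, 74.2 and 74.2 CPM in dual replicates 1 to 4. Only dual replicate 2 reached the lowest antagonist library, so the groups touched at that single value. The log2 fold change of Oas1a was -0.18 (SE 0.04, 95% interval -0.26 to -0.09) with an adjusted p of 0.0835 in edgeR. Oas1g, a close copy of Oas1a, had 29.7, 30.1, 29.6 and 31.9 CPM with the antagonist and 29.2, 25.8, 25.7 and 24.5 CPM with both ligands. All dual libraries of Oas1g lay under all antagonist libraries, although replicate 1 did so narrowly, and a gap of this kind was seen in 4.06% of all genes tested. The fit gave it a log2 fold change of -0.21 (SE 0.05, interval -0.32 to -0.09), at an adjusted p of 0.102 in edgeR. The transcripts of Oas1a share 68.8% of their 31-base words and 40.9% of their 100-base words with other genes, nearly all with Oas1g, so reads may have been lost or exchanged between the pair. With the counts of both summed to 1 feature, a step chosen after seeing the data, edgeR gave -0.18 and an adjusted p of 0.0579.

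Oas2, which carries a pair of synthetase units in its protein, had 57.9, 58.6, 66.4 and 68.8 CPM in the antagonist libraries and 57.6, 57.0, 53.6 and 57.1 CPM in the dual libraries. The groups of Oas2 did not overlap, but antagonist replicates 1 and 2 lay just above the dual libraries, and the difference came mostly from antagonist replicates 3 and 4. Oas2 had a log2 fold change of -0.16 (SE 0.05) with an adjusted p of 0.189 in edgeR. Oas3, the longest member and built of several synthetase units, had 30.9, 32.9, 39.0 and 39.4 CPM with the antagonist and 37.9, 40.4, 30.9 and 28.9 CPM with both ligands. Oas3 split each group into a high and a low pair of libraries, and its spread within the groups (12.1% and 16.0% of the mean) was the widest of the 8 genes. The log2 fold change of Oas3 was -0.05 (interval -0.24 to 0.14) with an adjusted p of 0.875 in edgeR. Without dual replicate 4 it was 0.03, and without dual replicate 2 it was -0.14.

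Oas1b, which lacks synthetase activity and is known as the flavivirus resistance gene of the mouse, had 25.9, 24.9, 26.5 and 27.3 CPM in the antagonist libraries and 25.3, 25.2, 23.5 and 23.2 CPM in the dual libraries. Dual replicates 1 and 2 lay within the antagonist range and dual replicates 3 and 4 below it. Oas1b had a log2 fold change of -0.11 (SE 0.05) with an adjusted p of 0.389 in edgeR. Oas1c, which starts back to back with it, had 5.68, 5.52, 5.22 and 5.68 CPM with the antagonist and 5.64, 5.65, 5.14 and 5.64 CPM with both ligands. These values rest on 184 to 258 counts in each library. Group means of Oas1c were 5.52 CPM in both, with an SD of 0.218 for the antagonist and 0.251 for the dual libraries (n = 4 each), and the interval of its log2 fold change ran from -0.19 to 0.18. That interval holds the values of most other members, so Oas1c cannot be set apart from them at this depth. A stretch of 227 of the 2405 exonic bases of Oas1c overlaps Gm43069 on the opposite strand, which had at most 6 counts in a library.

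Oasl1 and Oasl2 encode proteins that end in ubiquitin-like domains. Oasl1, which lacks synthetase activity and is known to hold back translation of Irf7, had 34.3, 36.5, 40.3 and 39.9 CPM in the antagonist libraries and 36.3, 34.4, 30.7 and 29.4 CPM in the dual libraries. Dual replicates 3 and 4 lay below every antagonist library of Oasl1, while dual replicates 1 and 2 lay inside the antagonist range. It had the largest fitted difference of the 8 genes, a log2 fold change of -0.21 (SE 0.06) with an adjusted p of 0.158 in edgeR. Oasl2, which is an active synthetase, had 614, 653, 661 and 679 CPM with the antagonist and 591, 636, 569 and 574 CPM with both ligands. All dual libraries except replicate 2 lay below the antagonist libraries of Oasl2. With 19278 to 30826 counts per library it was the most deeply counted member, and its log2 fold change came to -0.14 (SE 0.04, interval -0.22 to -0.06), at an adjusted p of 0.137 in edgeR.

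**Figure D2:**
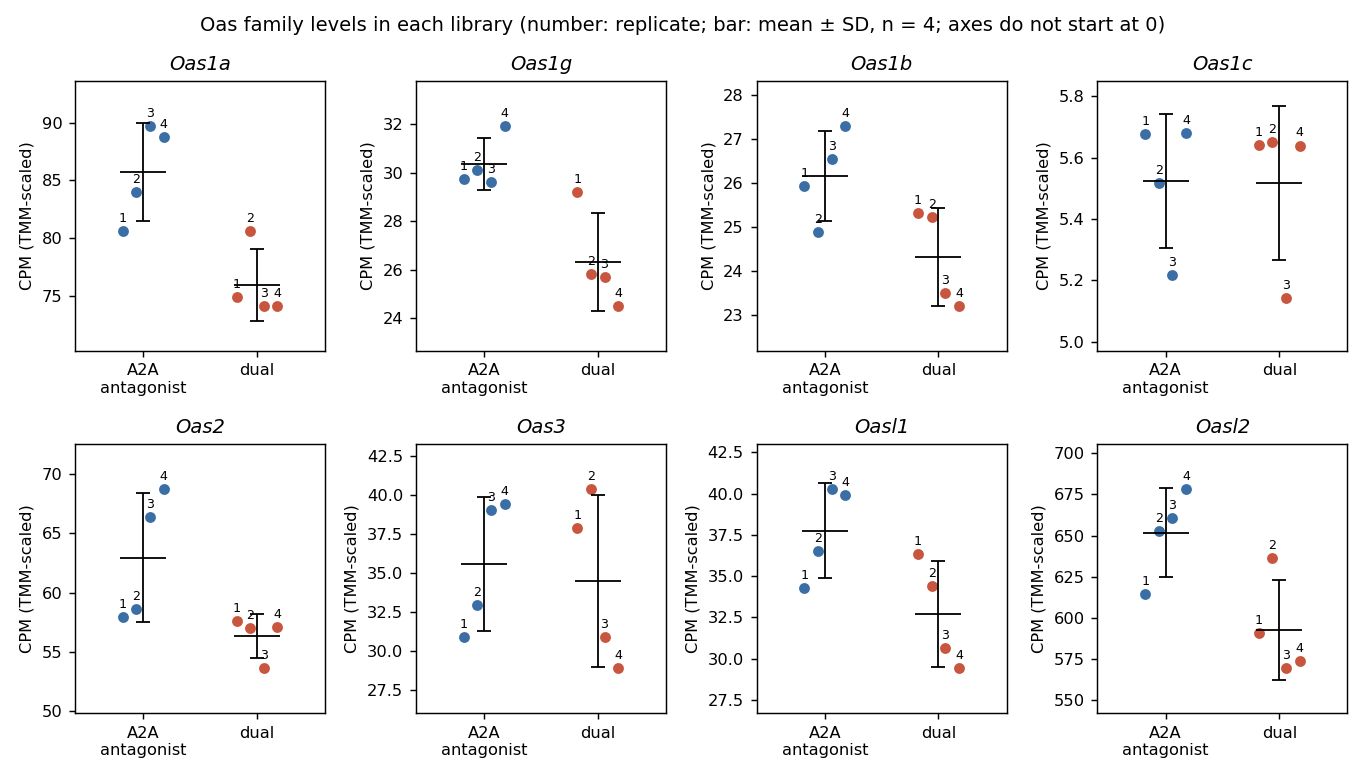
TMM-scaled CPM of each Oas gene in the 4 A2A antagonist libraries (blue) and the 4 dual libraries (red), with replicate numbers beside the dots and bars for the mean ± SD; the vertical axes do not start at 0. Oas1g and Oas2 show no overlap between the groups, Oas3 is split into pairs within each group, and Oas1c is level at 5.52 CPM in both.

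The calls depended on how the counts were tested. The DESeq2 Wald test called Oas1a (adjusted p 0.00726), Oas1g (0.0208) and Oasl2 (0.0210), with 3.36% of its 8877 genes with an adjusted p called lower. Without the low-count filter, edgeR called these 3 and Oasl1 (adjusted p 0.0252), with 0.806% of the genes called lower. Fold changes were almost the same in these fits, for example -0.18 for Oas1a in edgeR, in DESeq2 and without the filter. Leaving out 1 library gave a call in edgeR for Oas1a without antagonist replicate 1 (adjusted p 0.0327) and for Oas1g without dual replicate 1 (0.0475), and for no other member. These fits called 126 of 19064 and 21 of 19094 genes lower. In each case the library left out was the one of its group nearest the other group for that gene. Of the 8 members, 6 kept a negative log2 fold change in each of the 8 fits with 1 library left out, whereas Oas1c and Oas3 did not. The study's own criteria, which add a 1.5-fold change, were met by none of the 8.

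**Figure D3:**
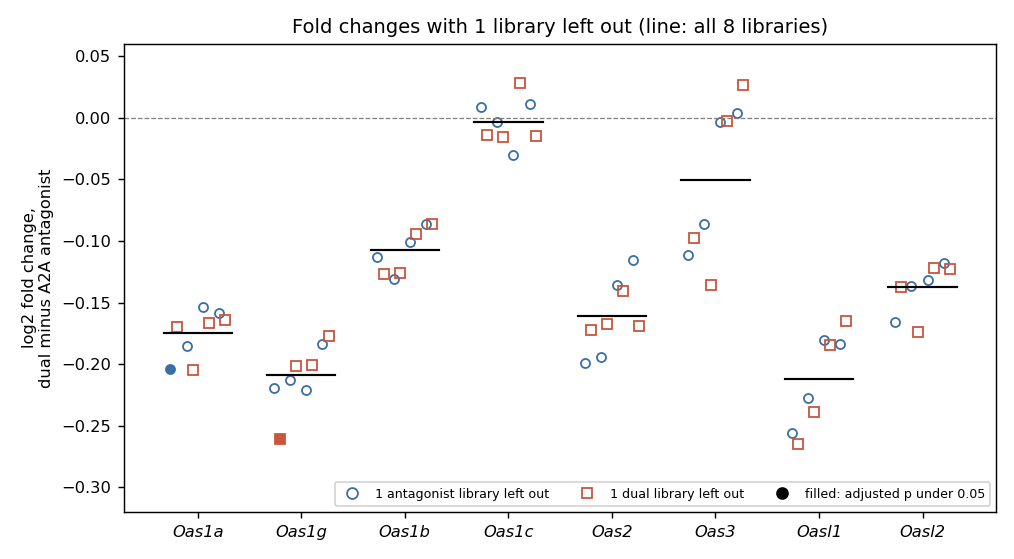
Log2 fold change (dual minus A2A antagonist, vertical axis) of each Oas gene with 1 library left out, as blue circles for antagonist and red squares for dual libraries, filled where the adjusted p was under 0.05; black lines give the fit of all 8 libraries. Oas1a and Oas1g are filled once each, and the points of Oas1c and Oas3 lie on both sides of 0.

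Much the same libraries were high or low for several of the genes. Antagonist replicate 4 held the highest CPM for 5 of the 8 genes and antagonist replicate 3 for 2, while dual replicates 3 and 4 each held the lowest for 4. The summed CPM of the family was 880, 926, 958 and 980 in the antagonist libraries and 858, 905, 813 and 817 in the dual libraries, with dual replicate 2 above antagonist replicate 1. Oasl2 makes up most of this sum. The median deviation of the 8 genes from their own means was 0.16 on the log2 scale in antagonist replicate 4 and -0.13 in dual replicate 3, and it was within 0.03 of 0 in replicates 1 and 2 of both groups.

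**Figure D4:**
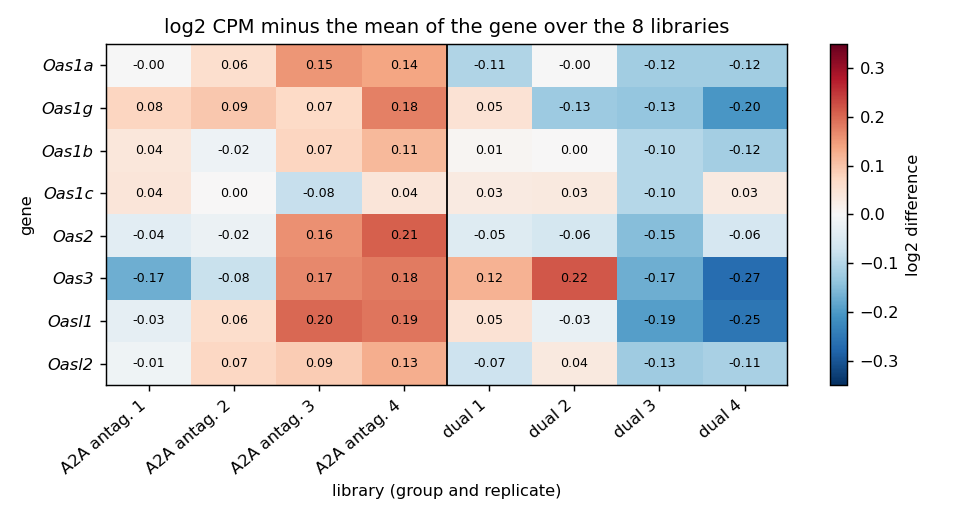
Log2 CPM of each Oas gene in each library minus the mean of that gene over the 8 libraries, with genes in rows, libraries in columns and a black line between the groups. Antagonist replicates 3 and 4 are mostly above 0 and dual replicates 3 and 4 mostly below, and Oas1c varies least.

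The 8 listed markers of microglia were all detected, although P2ry12 had only 48 to 111 counts per library. Markers of astrocytes, fibroblasts and the oligodendrocyte lineage were plentiful. The methods report a high purity of microglia by labelling of CD11b. From bulk RNA the levels of the Oas genes cannot be assigned to any single cell type. Summed per length, the 8 microglial markers had 584 to 656 RPKM in the antagonist libraries and 537 to 574 in the dual libraries, without overlap. Of these 8, 4 had lower and 4 higher fitted levels, with C1qa, which encodes a chain of complement C1q, called lower (log2 fold change -0.24, adjusted p 0.0240 in edgeR). Csf1r went the other way, with 211 to 223 CPM in the antagonist and 226 to 244 CPM in the dual libraries. Its log2 fold change was 0.11 (adjusted p 0.171 in edgeR), so it was not called. C1qa makes up most of the summed RPKM of the 8. The other 7 markers, set apart after their values were seen, summed to 167 to 175 RPKM with the antagonist and 166 to 178 RPKM with both ligands, which overlapped. Not divided by length, the sums of all 8 microglial markers were 1007 to 1081 and 967 to 1025 CPM and did overlap. In the same unit the astrocyte markers summed to 5771 to 6038 and 5824 to 6275 CPM. The fibroblast markers summed to 2379 to 2652 and 2369 to 2986 CPM. The 6 astrocyte markers had 953 to 1001 and 971 to 1034 RPKM, the 6 fibroblast markers 282 to 316 and 284 to 355, and the 6 markers of the oligodendrocyte lineage 191 to 205 and 173 to 191, the last without overlap and none of them called. The 4 mural markers were at 62.3 to 72.4 RPKM, the 3 endothelial markers found in the table at 7.36 to 10.01 and the 4 neuronal at 2.05 to 2.80 over all libraries, and none of the markers found in the table was at 0 throughout. In bulk RNA, fewer cells of a type and less RNA per cell cannot be told apart, and the part of cell makeup in the differences of the Oas genes was not tested.

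Genes that act after and around the synthetases were read from the same fit. Pde12, which breaks 2-5A down, had a log2 fold change of 0.04 (adjusted p 0.804 in edgeR), and Abce1, a factor of ribosome recycling, had -0.0097 (adjusted p 0.959). Neither was called.

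Of the 5 interferon-related transcription factors reported, 4 had lower and 1 had higher fitted levels with both ligands. Irf1, which IFN-γ induces, had 127, 133, 138 and 137 CPM with the antagonist and 122, 119, 118 and 118 CPM with both ligands, without overlap. Its log2 fold change of -0.17 (SE 0.04) had an adjusted p of 0.0557 in edgeR, the smallest among the 25 genes of the pathway that could be tested. Irf7, which amplifies type I interferon, had a log2 fold change of -0.18 (SE 0.05, adjusted p 0.114). Irf9 and Stat2, parts of the complex that binds the ISRE, had log2 fold changes of -0.07 and -0.05. Irf3, which is activated by phosphorylation and is not itself an interferon-stimulated gene, lay in the other direction with 0.08 (SE 0.04, adjusted p 0.371). None of these 5 was called in edgeR, 2 had an unadjusted p under 0.05 with a lower level and 1 with a higher one. In the DESeq2 Wald test Irf1 (adjusted p 4.40e-04) and Irf7 (0.0171) were called.

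Among the 10 other nucleic acid sensors and adaptors, 8 had lower and 2 higher fitted levels with both ligands, and the median of their log2 fold changes was -0.07. Dhx58, a regulator of the RIG-I family, averaged 84.2 CPM (SD 3.37, n = 4) in the antagonist and 76.5 CPM (SD 2.98, n = 4) in the dual libraries. Its log2 fold change of -0.14 had an adjusted p of 0.145 in edgeR. Zbp1, a sensor of left-handed nucleic acid, had -0.13 (adjusted p 0.154) and Ddx58, which encodes RIG-I, had -0.09 (adjusted p 0.226). These 3 were called by DESeq2 (adjusted p 0.0327, 0.0349 and 0.0478) and not by edgeR. Eif2ak2, which encodes the RNA-activated kinase PKR, and Adar, which edits double-stranded RNA, had log2 fold changes of 0.01 and -0.01. The 7 genes of interferon receptors and their kinases lay between -0.05 and 0.03 with a smallest adjusted p of 0.537. Among the 3 interferon genes of the list, Ifnb1 had 0 to 3 counts per library and was not testable, and Ifna4 and Ifng were not listed in the table. Over the lists of the pathway, 31 genes in all, 25 could be tested. Of these, edgeR called 0 at the adjusted threshold (0.208% of all genes tested were called) and 6 had an unadjusted p under 0.05 (12.8% of all genes tested). DESeq2 called 5 of the 23 to which it gave an adjusted p, all lower. Of all 8877 genes with such a p, it called 3.36% lower.

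**Figure D5:**
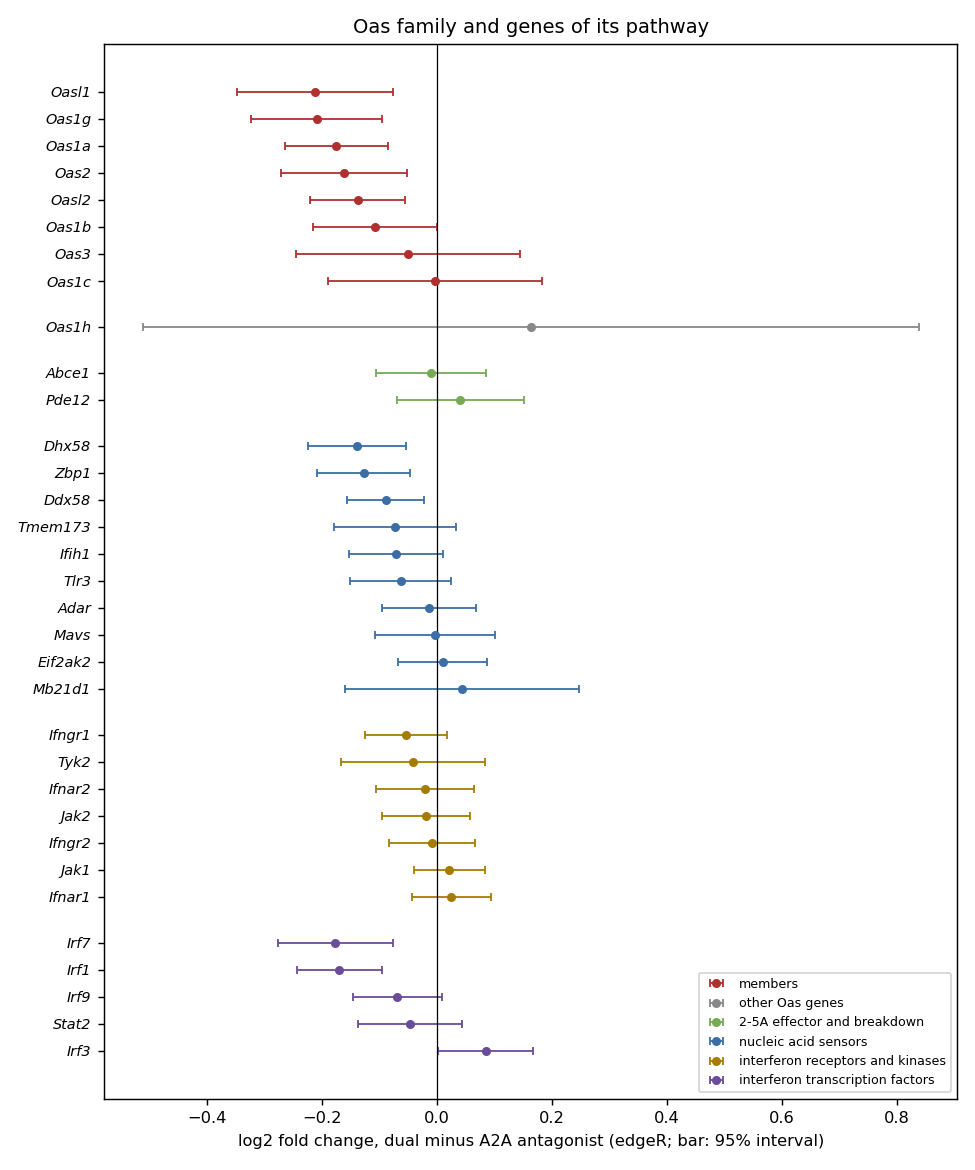
Log2 fold change (dual minus A2A antagonist, horizontal axis) with its 95% interval for the 8 Oas genes and for the tested genes of their pathway, coloured by list. The intervals of Oasl1, Oas1g, Oas1a, Oas2, Oasl2, Oas1b, Dhx58, Zbp1, Ddx58, Irf7 and Irf1 lie below 0 and that of Irf3 above it, while the fitted values of the interferon receptors and kinases run from -0.05 to 0.03; intervals are not adjusted for the number of genes.

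Genes with the profile most like that of the family over the 8 libraries were Tspan7, Sirpa, H2-T22, Nup133 and Etv5, the closest of 13654 genes compared. Likeness was the Pearson r of log2 CPM with the mean standardised profile of the 8 genes, from 0.965 for Tspan7 to 0.957 for Etv5 over 8 libraries, and as the highest values among many genes these carry no test. Spearman's rho ran from 0.905 to 1.00. Their log2 fold changes lay between -0.12 (Etv5) and -0.07 (Sirpa), and none was called in edgeR (adjusted p from 0.215 to 0.387). The choice by likeness to a profile lower in the dual libraries favours genes that are lower there. The direction of these fold changes is therefore no separate result. H2-T22, which encodes a non-classical class I molecule, averaged 357 CPM (SD 18.3) in the antagonist libraries and 332 CPM (SD 17.5) in the dual libraries, with n = 4 each.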

How the data were processed

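RNA was sequenced as 8 libraries, and the sources used here do not say whether each came from a separate culture. Per the labels and methods, the authors aligned paired-end reads with HISAT2 2.0.5 to the mouse genome (mm10) and counted reads per gene with featureCounts 1.5.0-p3. The deposited counts are raw, 32630602 to 45878639 per library, and the deposited FPKM values were scaled by the authors to length and depth. The use of strand in counting is not given in the sources used here. Within groups, the squared differences between library pairs were 3.83 to 9.53 times those of counting noise alone (chi-square per degree of freedom). A second deposited table, which repeats the antagonist counts, holds 9 per-sample columns that match no sample label here. These columns were not used, nor were the fold changes and p-values of the authors. Counts were fitted with edgeR 4.0.16 in R 4.3.3 (filterByExpr minimum count 10, TMM, quasi-likelihood F test, no covariates, two-sided, Benjamini-Hochberg over all genes tested). Standard errors were derived from F. DESeq2 1.42.0 was the alternative, and both were tested on simulated data. Gene models and shared words came from GENCODE M21 (GRCm38), in which 97.5% of matched genes had the same coordinates. The named genes are the 8 members, the lists of their pathway, and the 5 genes of most similar profile outside these and the markers. Members and lists were chosen with earlier results of these data known. Some genes of the pathway lists are not reported here, and list counts leave them out.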

Additional observations from a re-analysis of the deposited data

Results flagged for a closer look

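In 66 groups of 4 CPM values, for the Oas genes and the tested genes of their pathway, 5 held a library set apart from the other 3 by a gap above Dixon's 95% limit, where chance gives about 1 in 20. Oas1a in dual replicate 2 was at 80.6 CPM, above the 74.2 to 74.9 CPM of the other dual libraries. Oas1c in dual replicate 3 was at 5.14 CPM, below 5.64 to 5.65 CPM. Oas2 in dual replicate 3 was at 53.6 CPM, below 57.0 to 57.6 CPM. Irf9 in antagonist replicate 1 was at 134 CPM, below 144.5 to 145 CPM, and Irf1 in dual replicate 1 was at 122 CPM, above 118 to 119 CPM.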

How the results depend on the processing

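Over all genes edgeR called 39, against 366 without the low-count filter, 417 by DESeq2, 17 with the replicate number as a block, 1 with the 1.5-fold criterion, and 0 to 172 with 1 library left out. It called 0 without antagonist replicate 4 (1802 at an unadjusted p under 0.05) or dual replicate 3 (2092), 5 and 6 without antagonist replicates 2 and 3, and 172 without antagonist replicate 1. Of the 8 Oas genes it called 0, against 4 without the filter, 3 by DESeq2, 6 at an unadjusted p, and 0 to 1 with 1 library left out. Of the pathway genes it called 0, against 2 without the filter, 5 by DESeq2 and 0 to 3 with 1 library left out. Without the filter the log2 fold changes newly past the threshold were -0.18 (Oas1a), -0.21 (Oas1g), -0.22 (Oasl1) and -0.14 (Oasl2), and by DESeq2 they were -0.18 (Oas1a), -0.21 (Oas1g) and -0.14 (Oasl2). The cause was not tested. With 1 library left out, the log2 fold change ran from -0.20 to -0.15 for Oas1a, -0.13 to -0.09 for Oas1b, -0.030 to 0.028 for Oas1c, -0.26 to -0.18 for Oas1g, -0.20 to -0.12 for Oas2, -0.14 to 0.027 for Oas3, -0.26 to -0.16 for Oasl1 and -0.17 to -0.12 for Oasl2. It turned positive for Oas1c without antagonist replicate 1 (0.0088), antagonist replicate 4 (0.011) or dual replicate 3 (0.028), and for Oas3 without antagonist replicate 4 (0.0035) or dual replicate 4 (0.027).

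The replicate block changed no adjusted call among the Oas genes, and 5 of them had an unadjusted p under 0.05 with it. Deviations of same-numbered libraries correlated at -0.158, -0.0470, -0.0903 and -0.206 over 11051 genes, so the numbers were not taken to pair the libraries. Pairs of unlike number ran from -0.141 (antagonist replicate 2 with dual replicate 4) to 0.216 (antagonist replicate 4 with dual replicate 2). Whether libraries of unlike number share an origin was not tested. In edgeR, RLE size factors in place of TMM and a minimum count of 30 left the fold changes and adjusted calls of the Oas genes on the same side. The deposited FPKM, used for levels only, moved none of the levels by more than the spread between libraries. Over these alternatives the adjusted p ran from 0.00726 to 0.263 for Oas1a, 0.0208 to 0.323 for Oas1g, 0.0252 to 0.404 for Oasl1, 0.0147 to 0.377 for Oasl2 and 0.0573 to 0.493 for Oas2. Depth limits Oas1c most, at 184 to 258 counts per library.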
